A study of Mus musculus with 21 samples.

Results

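The amyloid precursor protein gene App, its paralogs Aplp1 and Aplp2, and 6 genes whose products cut the precursor or bind it were followed in mouse forebrain. The 9 genes were taken by symbol and matched to their Ensembl mouse identifiers in the deposited tables, where each had 1 identifier among the 55401 genes of the count table and was also listed among the 37538 genes of the FPKM table. FPKM counts fragments scaled by both exon length and library depth. A comparison of FPKM between genes therefore depends on the exon length taken for each gene. The set holds the precursor family (App, Aplp1, Aplp2), the beta-secretase Bace1, the alpha-secretase Adam10, the gamma-secretase subunits Psen2, Ncstn and Aph1a, and Itm2b, which encodes BRI2.

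APP is a membrane protein that is trimmed in sequence. Adam10 cuts it inside the amyloid-beta stretch, and Bace1 cuts it at the start of that stretch, after which the gamma-secretase complex of a presenilin, nicastrin, an APH1 subunit and PEN-2 releases the remaining peptide from the membrane. Aplp1 and Aplp2 are cut by the same enzymes but hold no amyloid-beta stretch, and BRI2 binds APP and limits its cleavage.

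RNA from the forebrains of 21 mice was sequenced in 6 groups. E2H, E3H and E4H mice, 3 in each group, were parental APOE targeted replacement mice in which both copies of mouse Apoe were replaced by human APOE2, APOE3 or APOE4, and were 9 to 10 months old. Mice of the corresponding PS19 groups, 4 in each and named PS/E2H to PS/E4H, carried the same replacements and were also heterozygous for the PS19 transgene, a human tau with the P301S mutation that is driven by the mouse prion promoter, and were collected at hindlimb paralysis. By this design none of the 21 mice had an unreplaced copy of mouse Apoe, and none was a wild-type mouse. The transgene, paralysis, the age at collection and the B6/C3H background of the PS19 parents cannot be told apart, since the parental mice had none of them. In the study's survival cohorts, PS/E3H mice reached paralysis later than PS/E2H and PS/E4H mice. APOE line and age at collection therefore cannot be told apart in any comparison of lines, or interaction, that includes PS19 mice. The mice were male except 1 E4H, 1 PS/E2H and 2 PS/E4H females, which the labels do not identify, so sex was not a term in any fit.

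Library totals ran from 59265459 to 75932183 counts. The mouse Apoe entry still had 617 to 1164 counts in every library, and the source of these reads was not tested. Prnp, whose promoter drives the transgene, had 818 to 1072 CPM, counts scaled by TMM-adjusted library size, in parental mice and 1391 to 1928 in PS19 mice. All 8 neuronal markers were detected in every mouse, and no marker of the other brain cell types examined was at 0 in any mouse, while 2 of 3 anterior pituitary markers were at 0 in some. The libraries E2H 2 and PS/E3H 1 stood apart from their groups on the first principal components, the latter being the PS19 library nearest to the parental mice. Results that these libraries decide are given with and without them. On the first component PS/E3H 1 lay at -1.8 and E2H 2 at -13.4, each nearest of its tau genotype to the other. Leaving them out therefore favours a clearer difference between PS19 and parental mice, so passing without them is no separate support for one. PS/E2H 3 also lay apart from its group, at -4.8 on the second component where the others were at 16.3, 34.8 and 25.2. It was left out only in the fits that left out 1 mouse.

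Annotated promoters are given for the 3 genes that differed between PS19 and parental mice, and for App, which did not pass the test. Which start was used in these forebrains was not tested. Each sequence is the stretch just upstream of the RefSeq start (GRCm38.p6), 5′ to 3′ on the gene's strand, with matches to the GC box GGGCGG, read on both strands, in capitals. App was trimmed to the bases upstream of the Ensembl start as well.
App, chr16:85173767-85173957, minus strand: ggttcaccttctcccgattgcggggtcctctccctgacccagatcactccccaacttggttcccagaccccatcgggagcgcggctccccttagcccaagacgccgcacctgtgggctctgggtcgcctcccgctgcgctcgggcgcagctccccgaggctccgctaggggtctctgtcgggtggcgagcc
Aplp2, chr9:31211849-31212098, minus strand: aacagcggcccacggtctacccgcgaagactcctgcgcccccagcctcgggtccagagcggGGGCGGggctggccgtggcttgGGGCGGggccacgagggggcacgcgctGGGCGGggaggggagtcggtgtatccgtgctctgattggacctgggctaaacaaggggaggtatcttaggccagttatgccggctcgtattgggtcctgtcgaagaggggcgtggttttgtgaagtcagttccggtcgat
Aph1a, chr3:95893671-95893920, plus strand: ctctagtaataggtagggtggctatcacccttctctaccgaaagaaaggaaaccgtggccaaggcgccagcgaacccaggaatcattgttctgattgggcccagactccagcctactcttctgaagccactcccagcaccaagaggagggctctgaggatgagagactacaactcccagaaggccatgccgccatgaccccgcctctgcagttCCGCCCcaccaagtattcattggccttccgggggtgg
Itm2b, chr14:73385290-73385539, minus strand: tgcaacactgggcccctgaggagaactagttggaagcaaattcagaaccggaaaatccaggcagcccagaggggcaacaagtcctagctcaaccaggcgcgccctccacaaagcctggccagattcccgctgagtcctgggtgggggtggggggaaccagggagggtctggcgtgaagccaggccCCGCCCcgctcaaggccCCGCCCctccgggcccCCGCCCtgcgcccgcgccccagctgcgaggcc
Aplp2 held 3 GC boxes, Itm2b 3 and Aph1a 1, and the trimmed App stretch held 0. A GC box was present in 32.7% of 32851 RefSeq promoters over the 250 bases upstream of the start. The App stretch has 191 bases, so its values are not on the same length as these shares. CCAAT matched at 2 positions in Aplp2 and 2 in Aph1a and at none in App or Itm2b, against 33.8% of all promoters, and TATAAA, present in 12.4% of all promoters, and CACGTG, present in 6.02%, matched none of the 4. These stretches were GC-rich, with 69.6% G and C in App, 66.4% in Aplp2, 57.2% in Aph1a and 68.8% in Itm2b, against a median of 52.4% over all promoters. Promoters were listed for 8 of the 9 genes, Bace1 being the exception.

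**Figure D1:**
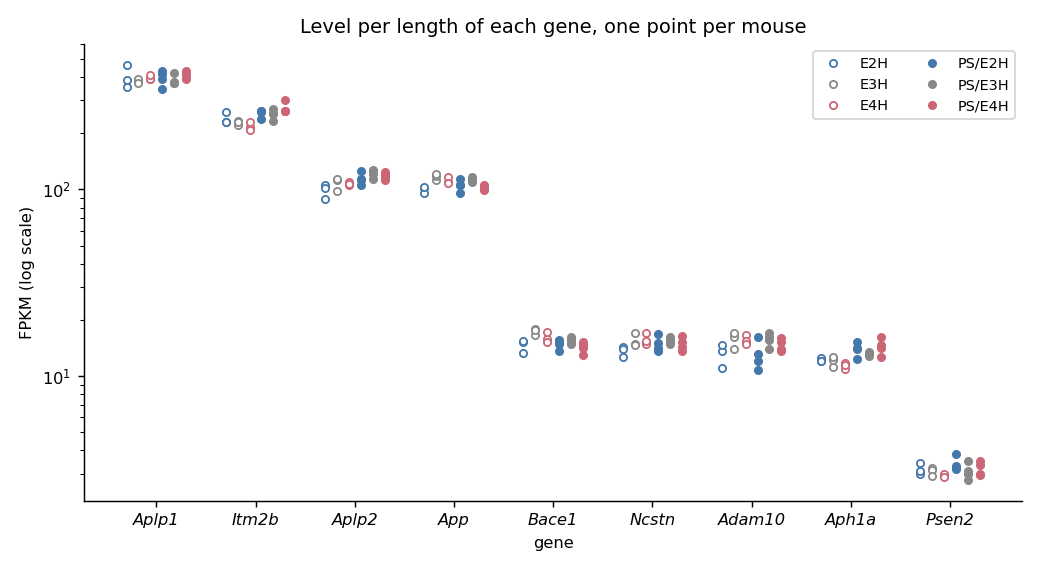
FPKM of each gene in each of the 21 mice, on a log scale, with genes ordered by their mean and open symbols for parental mice, filled for PS19 mice. Aplp1 and Itm2b lie above App and Aplp2 in every mouse, and Psen2 lies lowest at 2.77 to 3.82 FPKM.

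Compared per length, Aplp1 had the highest FPKM of the 9 genes, at 345 to 466 over the 21 mice. Itm2b followed at 207 to 303 FPKM. Their ranges did not overlap, and the order held in every mouse. The place of App depends on exon length, which over all annotated transcripts was 12996 bases for App and 3017 for Aplp1. By mean CPM, without length scaling, App was highest at 1522, then Aplp1 at 1297, Itm2b at 732 and Aplp2 at 715. Which transcript was most abundant is thus not settled by FPKM. Aplp2 at 88.5 to 127 FPKM and App at 95.6 to 121 FPKM were not separated, with Aplp2 above App in 12 of 21 mice. By group means, App was above Aplp2 in each parental group and below it in each PS19 group. Bace1 at 12.9 to 17.8, Ncstn at 12.7 to 17.1, Adam10 at 10.8 to 17.1 and Aph1a at 10.9 to 16.2 FPKM formed a block whose neighbours overlapped in range. Psen2 stood below all of these, at a mean of 3.15 FPKM, and its counts were correspondingly the lowest, 787 to 1172 per mouse.

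Within the precursor family, Aplp1 made up 64.2% ± 2.78 of the summed FPKM (SD, n = 21), Aplp2 18.3% ± 1.74 and App 17.6% ± 1.45. These shares depend on the same exon lengths and are not shares of transcript number. By mean CPM, App was the highest of the 3 at 1522, against 1297 for Aplp1 and 715 for Aplp2. The highest Aplp1 share, 71.7%, was in E2H 2, a library that stood apart, and the lowest, 59.1%, in a PS/E2H mouse. Without E2H 2 the highest share was 68.3%, and the mean was 63.8% ± 2.24 (SD, n = 20). The replicate spread was narrow for App and Aplp2, with a coefficient of variation within groups of 3.8% and 4.04% in CPM, and wider for Aplp1 at 10.4% (7.63% without E2H 2) and Adam10 at 8.92%.

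**Figure D2:**
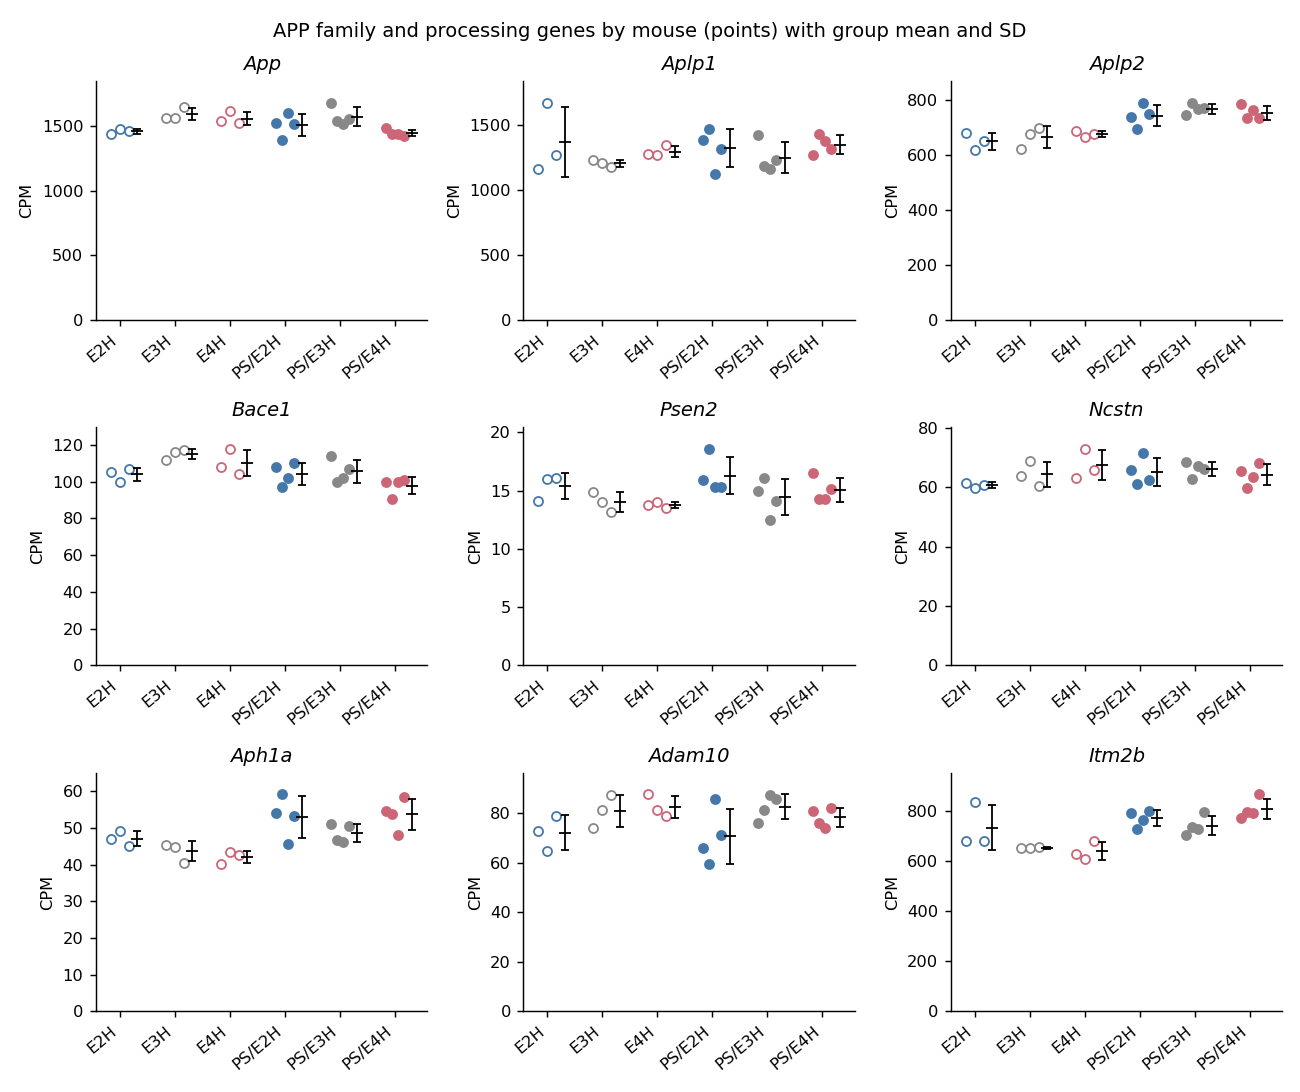
CPM of each gene in each mouse, by group, with the group mean and SD beside the points (n = 3 parental and 4 PS19 mice per group). Aplp2 lies at 617 to 697 CPM in the parental mice and at 694 to 789 CPM in the PS19 mice.

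To ask how the genes differed between paralyzed PS19 mice and parental mice, all 21 mice were fitted with tau genotype and APOE line as terms. Aplp2, Aph1a and Itm2b were higher in PS19 mice, by 1.14-, 1.17- and 1.15-fold. App, Aplp1, Psen2, Ncstn and Adam10 did not pass the test, and neither did Bace1, which had the lowest fold change of the 9. An adjusted p under 0.05 was reached by 3 of 9 genes, all higher, where 21% of the 22863 genes tested reached it. None of the 9 also differed by 2-fold, the study's own limit, which 2.6% of the genes tested met. The median log2 fold change was 0.02 over the 9 genes and -0.01 over all genes tested. In bulk tissue, a change in the number of cells that carry a transcript and a change in transcript per cell cannot be told apart.

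Aplp2 encodes an APP-like protein with broad expression. Its CPM were 679, 617 and 651 in E2H, 622, 675 and 697 in E3H and 685, 664 and 677 in E4H mice. In PS19 mice they were 738, 694, 789 and 747 in PS/E2H, 743, 788, 765 and 769 in PS/E3H and 783, 732, 761 and 732 in PS/E4H. Within each APOE line, every PS19 mouse was above every parental mouse, and over all lines the ranges touched only at the lowest PS/E2H mouse and the highest E3H mouse. The log2 fold change was 0.18 ± 0.033 (SE; adjusted p = 0.00027, edgeR), and it held when any 1 of the 21 mice was left out, at 0.17 to 0.19. The line-by-line log2 fold changes were 0.19 for E2H, 0.19 for E3H and 0.15 for E4H. Their adjusted p-values were 0.437, 0.104 and 0.0952, and the E3H difference passed with adjusted p = 0.0391 when PS/E3H 1 was left out.

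Aph1a encodes a scaffold subunit that helps to assemble gamma-secretase. Parental CPM were 47.0, 49.1 and 45 in E2H, 45.5, 44.9 and 40.5 in E3H and 40.3, 43.5 and 42.7 in E4H mice. PS19 CPM were 54.1, 59.2, 45.6 and 53.2 in PS/E2H, 51.1, 46.8, 46.3 and 50.5 in PS/E3H and 54.6, 53.9, 48.2 and 58.5 in PS/E4H. The groups did not overlap on the E3H and E4H backgrounds and overlapped on the E2H background, where 1 PS/E2H mouse was within the E2H range. The log2 fold change over all lines was 0.23 ± 0.050 (adjusted p = 0.0020), and 0.21 to 0.25 without any 1 mouse. In the E4H line alone it was 0.35 ± 0.075 (adjusted p = 0.0134), and the call was lost when E4H 1 was left out (adjusted p = 0.0707). In exon sequence, 21.2% of the 50-base windows of Aph1a also occur in the pseudogene Gm15429, so reads there could be divided between them. Gm15429 itself was at 1.09 to 2.76 CPM, with a log2 fold change of 0.30 that did not pass (adjusted p = 0.16). Car14, a neighbour that overlaps Aph1a on the other strand, was higher in PS19 mice by 0.77 (adjusted p = 2.91e-05). The libraries were stranded, but how strand was used in counting is not given in the sources used here.

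Itm2b encodes BRI2, whose mutant forms cause familial British and Danish dementia. Its CPM were 683, 839 and 682 in E2H, 652, 653 and 658 in E3H and 631, 609 and 681 in E4H mice. They were 794, 731, 764 and 801 in PS/E2H, 707, 738, 728 and 797 in PS/E3H and 774, 797, 795 and 868 in PS/E4H. On the E3H and E4H backgrounds every PS19 mouse was above every parental mouse, while E2H 2, a library that stood apart, was above every PS/E2H mouse. The log2 fold change over all lines was 0.20 ± 0.046 (adjusted p = 0.0036). Without E2H 2 and PS/E3H 1 it was 0.25 (adjusted p = 5.73e-05). In the E4H line it was 0.33 ± 0.065 (adjusted p = 0.0091), and without E4H 2 the call was narrowly lost (adjusted p = 0.0501). In the E3H line it was 0.17 (adjusted p = 0.135), and it passed without PS/E3H 1 (adjusted p = 0.0385).

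**Figure D3:**
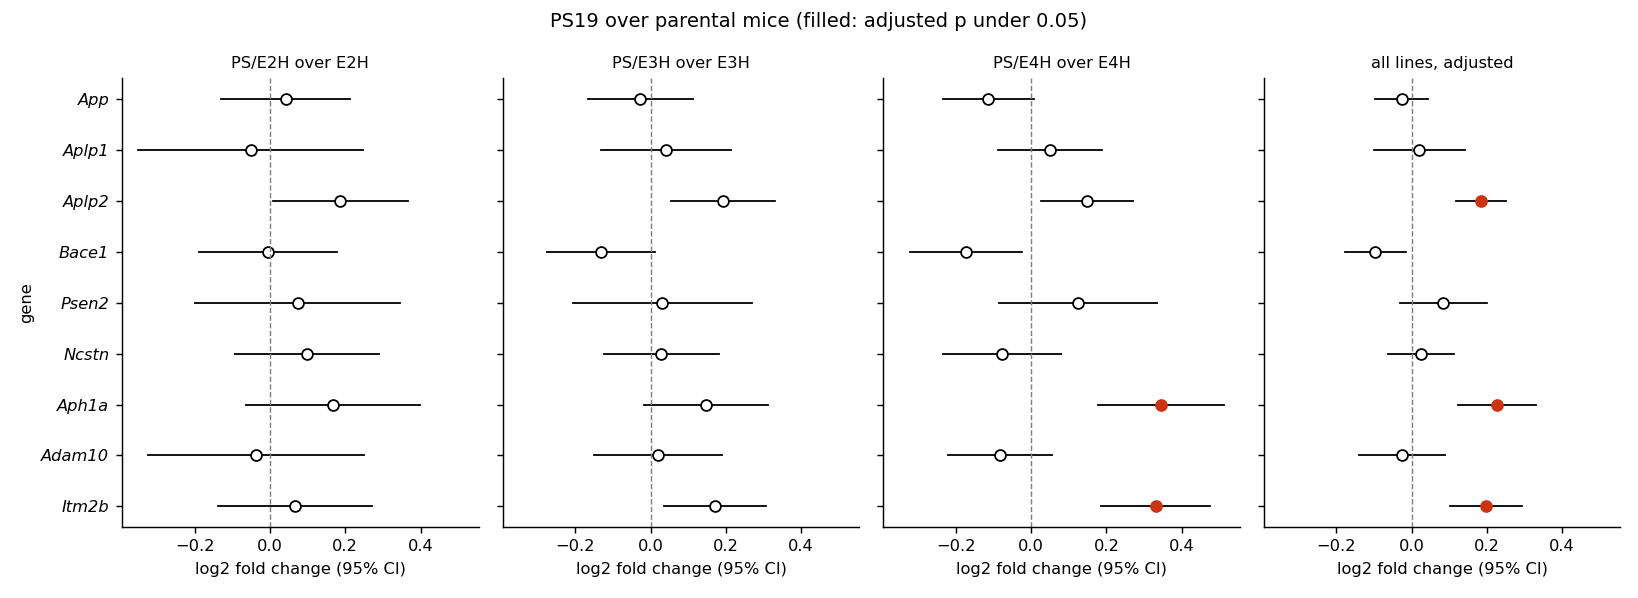
Log2 fold change of PS19 over parental mice for each gene, with 95% confidence intervals, in each APOE line and over all lines adjusted for line. Filled points passed an adjusted p of 0.05, which Aph1a and Itm2b did on the E4H background and Aplp2, Aph1a and Itm2b over all lines.

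Bace1, which begins the amyloidogenic route, was at 105, 100 and 107 CPM in E2H, 112, 116 and 117 in E3H and 108, 118 and 104 in E4H mice. PS19 mice had 108, 97.0, 102 and 110 in PS/E2H, 114, 100, 102 and 107 in PS/E3H and 99.8, 90.8, 99.8 and 101 in PS/E4H. All 4 PS/E4H mice were below the 3 E4H mice, and the other lines overlapped. The log2 fold change over all lines was -0.10 ± 0.039 (adjusted p = 0.0871), and it passed in DESeq2 (adjusted p = 0.047), without E2H 2 (adjusted p = 0.0376), without PS/E2H 4 (adjusted p = 0.0484) and without both E2H 2 and PS/E3H 1 (-0.12, adjusted p = 0.0227). Gm16536, an antisense gene that overlaps Bace1, had a log2 fold change of -0.16 (adjusted p = 0.111). Rnf214, a protein-coding gene that overlaps Bace1 on the other strand, had a mean of 43.4 CPM in parental and 39.9 CPM in PS19 mice. Whether reads of these neighbours entered the Bace1 counts was not tested.

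App itself stayed within a narrow range. CPM were 1441, 1475 and 1464 in E2H, 1566, 1567 and 1645 in E3H and 1540, 1618 and 1521 in E4H mice. They were 1524, 1394, 1600 and 1516 in PS/E2H, 1682, 1539, 1520 and 1557 in PS/E3H and 1484, 1440, 1440 and 1423 in PS/E4H. PS/E4H mice were all below the E4H mice, and the 2 other lines overlapped. Over all lines the log2 fold change was -0.03 with a 95% confidence interval from -0.10 to 0.04, so that a difference of over 0.10 in either direction was outside the interval. In the E4H line it was -0.11 with an interval from -0.24 to 0.01 (adjusted p = 0.19).

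The remaining genes gave small differences. Adam10, the main neuronal alpha-secretase, had a log2 fold change of -0.03 (95% interval -0.14 to 0.09). Ncstn, the nicastrin subunit that receives substrates, had 0.02 (-0.06 to 0.11), and Aplp1 had 0.02 (-0.10 to 0.14). Copa, which overlaps Ncstn on the other strand, had 13039 to 20628 counts per mouse, against 3385 to 5505 for Ncstn. Psen2, a presenilin that carries the catalytic site, had 0.08 (-0.03 to 0.20). Of these 4, Psen2 did not overlap between the PS/E4H range, 14.3 to 16.5 CPM, and the E4H range, 13.5 to 14.0 CPM, and its difference there did not pass (0.12, adjusted p = 0.42).

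Line by line, 0 of 9 genes passed in PS/E2H over E2H, where 0.752% of genes tested passed, 0 of 9 in PS/E3H over E3H, where 5.37% passed, and 2 of 9 in PS/E4H over E4H, where 15.6% passed (edgeR). At an unadjusted p under 0.05 there were 1, 2 and 4 of 9, against 10.7%, 21.4% and 30.1% of all genes tested. DESeq2 called 0, 1 and 3 of 9, against 2.87%, 12.9% and 22.9% of all genes. By CPM ranges that did not overlap, 1 of 9 genes was separated on the E2H background, where 11.7% of genes tested were, 3 on the E3H background, where 19.3% were, and 6 on the E4H background, where 28.8% were. Over the 12 PS19 and 9 parental mice together none of the 9 was separated, and 1.53% of genes were.

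The difference between lines was tested as an interaction. None of the 9 genes passed for the tau difference in E2H minus that in E3H, in E4H minus that in E3H or in E4H minus that in E2H (edgeR and DESeq2). Of all genes tested in edgeR, 0% passed in each, with 1265, 847 and 2223 genes at an unadjusted p under 0.05, and DESeq2 called 8, 11 and 118. At an unadjusted p under 0.05 there were 0, 0 and 1 of 9, the last being Itm2b, whose PS19 difference was 0.26 ± 0.11 larger in log2 on the E4H than on the E2H background (adjusted p = 0.453). Without E2H 2 the Itm2b value fell to 0.16 (adjusted p = 0.701). For Aph1a that difference was 0.18, with a 95% confidence interval from -0.09 to 0.44. A difference in response between APOE lines was thus not shown for any of the 9.

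Cell markers were followed in the same contrast, in which 21% of all genes tested passed. Of 7 astrocyte markers 7 were higher in PS19 mice, with a median log2 fold change of 0.393 (0.26 to 2.68). Their summed level was 2746 to 3295 CPM in parental and 4233 to 6264 CPM in PS19 mice. That sum is weighted by Gfap, which ran from 14825 to 153564 counts over the mice, so it overstates the change of the typical marker. Of 8 microglial markers 7 were higher, with sums of 410 to 554 and 666 to 1194 CPM and log2 fold changes of -0.0581 to 1.84 (median 0.914). Of 6 oligodendrocyte markers 4 were higher, with sums of 4744 to 7027 and 6055 to 9129 CPM (median log2 fold change 0.287). Of 8 neuronal markers 5 were lower and 1 higher, with sums of 6888 to 7488 in parental and 5961 to 7304 in PS19 mice. The highest PS19 sum was in PS/E3H 1, and without it the PS19 sums reached 6773, below every parental mouse. Since PS/E3H 1 was set apart for lying nearest to the parental mice, that separation was favoured in advance. Of 4 endothelial markers 1 was higher, of 4 choroid plexus markers 1 was higher, of 3 pituitary markers 1 was lower, and neither of the 2 oligodendrocyte precursor markers passed. With 21% of all genes tested passing, 1 of 3 or 1 of 4 markers is not read as a shift. By line, oligodendrocyte markers were higher for 0 of 6 on the E2H background (median log2 fold change -0.0407), 6 of 6 on E3H (0.44) and 5 of 6 on E4H (0.458), and microglial markers for 3, 6 and 7 of 8 (0.687, 0.779 and 1.15). Of all genes tested, 0.752%, 5.37% and 15.6% passed on the E2H, E3H and E4H backgrounds. The PS19 difference on the E4H background minus that on E2H had a median of 0.504 over the oligodendrocyte and 0.561 over the microglial markers, in the test that 0% of all genes passed (edgeR). The part of these shifts in the rise of Aplp2, Aph1a and Itm2b, over all lines or in single lines, was not tested.

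To ask whether APOE line bore on the genes, the 3 lines were compared within parental mice, within PS19 mice, and over all mice with tau genotype as a term. None of the 9 genes passed in any of these 9 comparisons (edgeR). Among parental mice, 0.178% of genes tested passed for E2H over E3H, 0.162% for E4H over E3H and 0.216% for E4H over E2H. Among PS19 mice, 0.113% passed for PS/E2H over PS/E3H, 0.0197% for PS/E4H over PS/E3H and 0.119% for PS/E4H over PS/E2H. Over all mice, 3.31% passed for APOE2 over APOE3, 0.122% for APOE4 over APOE3 and 0.634% for APOE4 over APOE2. At an unadjusted p under 0.05, the number of the 9 genes was 0 in every pair except 1 in PS/E4H over PS/E3H, which was App and where 6.51% of all genes were, and was 3, 0 and 1 in the fits over all mice, against 21.5%, 5.77% and 16.5% of all genes. DESeq2 called Adam10 for APOE2 over APOE3 over all mice, where it called 12.6% of all genes, and none of the 9 in the other 8.

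**Figure D4:**
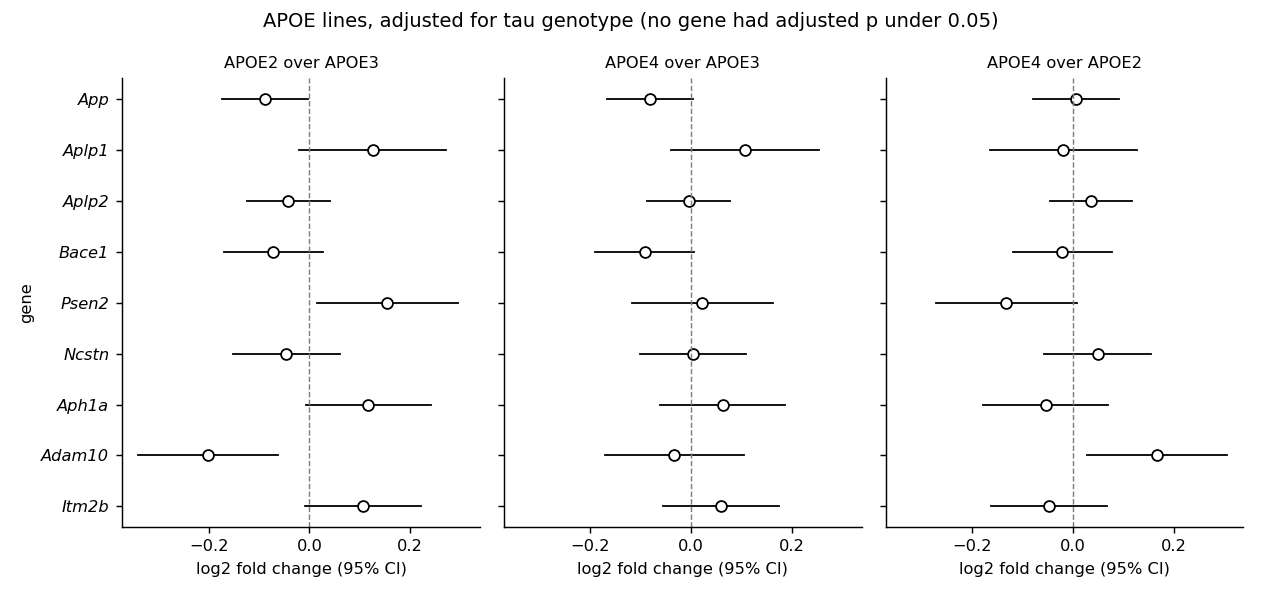
Log2 fold change between APOE lines for each gene with 95% confidence intervals, from the fits over 21 mice adjusted for tau genotype. No point passed an adjusted p of 0.05, and Adam10 lies farthest from 0, at -0.20 for APOE2 over APOE3.

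Adam10 had the largest difference of the 9 genes between APOE2 and APOE3 lines. Its CPM were 72.9, 64.8 and 78.9 in E2H, 74.2, 81.4 and 87.4 in E3H and 87.7, 81.4 and 78.8 in E4H mice. They were 66.1, 59.6, 85.8 and 71.3 in PS/E2H, 76.2, 81.5, 87.5 and 85.9 in PS/E3H and 80.9, 76.3, 74.1 and 82.1 in PS/E4H. The APOE2 groups overlapped the others through single mice, PS/E2H 3 lying among the APOE3 values. The log2 fold change for APOE2 over APOE3 was -0.20 ± 0.067 (adjusted p = 0.0849), and without PS/E2H 3 it was -0.26 (adjusted p = 0.0105). For APOE4 over APOE2 it was 0.17 ± 0.067 (adjusted p = 0.217), and 0.22 without PS/E2H 3 (adjusted p = 0.0427). Aplp1 lies 10.74 Mb from Apoe on chromosome 7, and its log2 difference was 0.13 for APOE2 over APOE3 (adjusted p = 0.318) and 0.11 for APOE4 over APOE3 (adjusted p = 0.935).

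The wider pathway was followed in a list of 40 further genes, covering other secretases and subunits, Adam10 partners, APP adaptors, sorting factors and proteases that degrade amyloid-beta. In PS19 over parental mice, 4 of 40 were higher and 2 lower, so that 6 of 40 passed where 21% of all genes tested did, with a median log2 fold change of -0.00315 against -0.01 over all genes tested. Tspan15, a tetraspanin that steers Adam10, was the largest of those that passed, at 13.0 to 16.3 CPM in parental and 10.8 to 24.5 CPM in PS19 mice, so that the ranges overlapped (log2 fold change 0.35 ± 0.099, adjusted p = 0.0139). Adam17, an alpha-secretase and tumour necrosis factor convertase, was higher by 0.29 ± 0.088 (adjusted p = 0.023). Itm2c, a paralog of Itm2b, was higher by 0.19 ± 0.057 (adjusted p = 0.0228), and Tmed10, a gamma-secretase modulator, by 0.14 ± 0.050 (adjusted p = 0.0428). The Tmed10 call held in 5 of the 21 fits that left out 1 mouse and in 3 of 10 other alternatives (adjusted p up to 0.145), and the Adam17 call was lost without E4H 2 (adjusted p = 0.0521) or E4H 3 (0.0514) and in all 3 limma fits on FPKM (adjusted p = 0.0624 to 0.0963). Itm2c was lost without E2H 1 or E4H 2 (highest adjusted p = 0.0562) and with the replicate block (adjusted p = 0.0643). Without E2H 2 and PS/E3H 1, 10 of 40 genes passed, 7 higher and 3 lower, as did 10 without E2H 2 alone, and 3 passed without E4H 2. The share of all genes that passed in these reduced fits is not given, so the change from 6 is not read as a result about the list. Gga3, an adaptor that sends BACE1 to lysosomes, was lower (-0.19 ± 0.057, adjusted p = 0.0177), though not with the replicate block or in limma with no filter (highest adjusted p = 0.0575), and so was Rtn3, a reticulon that binds BACE1 (-0.12 ± 0.032, adjusted p = 0.0082).

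By role, 1 of 3 other secretases, 1 of 3 modulators, 1 of 5 tetraspanins and 1 of 5 genes of the Itm2 group were higher, and 2 of 8 sorting genes were lower. None of 3 other gamma-secretase subunits, none of 9 APP adaptors and none of 4 proteases that degrade amyloid-beta passed. With 21% of all genes tested passing in this fit over all lines, counts this small do not set the roles apart. In PS/E4H over E4H, 5 of 40 were higher and 2 lower, where 15.6% of all genes tested passed, with 1 to 8 of 40 passing when any 1 mouse was left out and the fewest, 1, without E4H 1. In the E2H and E3H lines, where 0.752% and 5.37% of all genes passed, 0 of 40 did (edgeR), with 1 and 9 at an unadjusted p under 0.05 and 0 and 4 in DESeq2, and without PS/E3H 1 there were 4 in the E3H line. Between APOE lines, Tspan33, another Adam10 partner, was higher in APOE2 than in APOE3 lines (0.23 ± 0.062, adjusted p = 0.0432) and lower in APOE4 than in APOE2 lines (-0.29 ± 0.062, adjusted p = 0.0228), each over all 21 mice. The former held in 5 of 21 fits that left out 1 mouse (adjusted p = 0.0189 to 0.102), and not without E2H 2 and PS/E3H 1, and the latter in 14 of 21 (0.00574 to 0.0786).

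**Figure D5:**
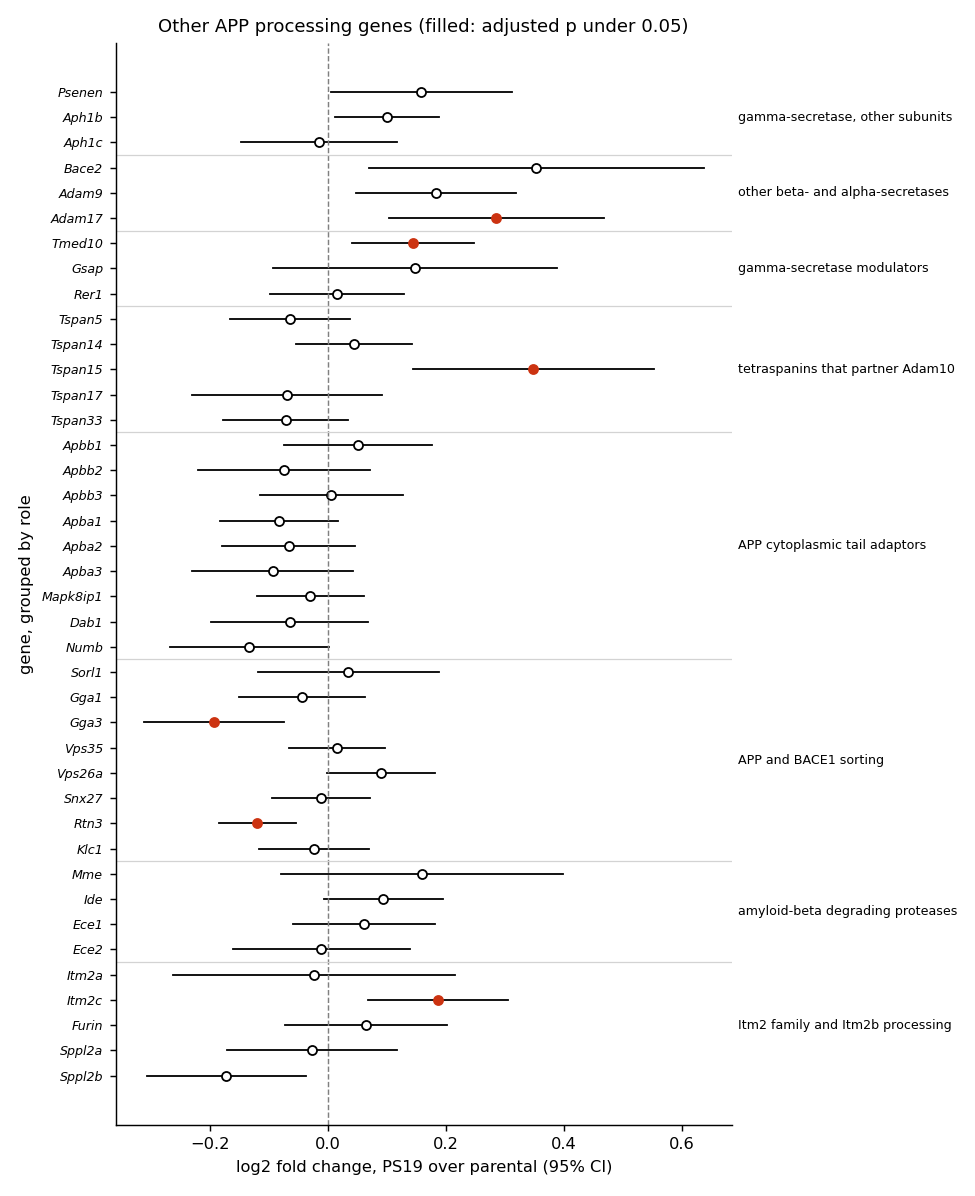
Log2 fold change of PS19 over parental mice, adjusted for APOE line, for the 40 further genes of APP processing, grouped by role, with 95% confidence intervals. Filled points passed an adjusted p of 0.05, 4 above 0 and 2 below it.

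Outside both lists, the genes whose log2 CPM was most like that of App over the 21 mice, among 10476 genes with a mean of at least 10 CPM, were Cmip (Pearson r = 0.879), Sort1 (0.846) and Cntnap1 (0.839). With the group means taken out they were Mapre2 (r = 0.847), Slitrk1 (0.847) and Slc12a5 (0.846). The points share libraries, so these values describe these 21 mice.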

How the data were processed

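Poly(A) RNA from forebrains was made into stranded libraries and sequenced as read pairs. The authors trimmed reads with Cutadapt, aligned them with HISAT2 to the Ensembl mouse genome (GRCm38) and quantified genes with StringTie. The deposited count table holds whole-number counts per gene, and the deposited FPKM table holds values that the authors scaled by exon length and library depth. Tool versions are not given in the sources used here.

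Counts were tested with edgeR 4.0.16 (glmQLFit and glmQLFTest, R 4.3.3) after TMM scaling and filterByExpr, and p-values were adjusted over all genes tested by Benjamini-Hochberg. Confidence intervals are 95% and come from the same fits. DESeq2 1.42.0, limma 3.58.1 on log2(FPKM + 1) and log2(FPKM + 0.1), other scalings, no filter, all 21 mice in 1 fit, a replicate block, and leaving out each mouse were alternatives. Leaving out E2H 2 and PS/E3H 1 together was added after seeing the data. CPM use TMM-scaled totals and are compared within a gene, FPKM between genes. Mean CPM was set between genes only to show that their order depends on length scaling, and is not a measure of transcript number between genes. Replicate pairs differed by more than sampling noise, so every mouse counted as 1 replicate. Scripts were tested on simulated data.

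The 9 genes, the 40 further genes and the markers were chosen with earlier results of these data known, and 1 more gene of the pathway is not reported here. Further genes were named where they passed in the fit over 21 mice. Promoters are from RefSeq (GRCm38.p6). The comparisons of PS19 with parental mice in the single lines and over all lines share mice, as do those between APOE lines.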

Additional observations from a re-analysis of the deposited data

Results flagged for a closer look

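Of 27 sets of 4 PS19 mice, 9 genes in 3 groups, 1 held a value far from the rest. Bace1 in PS/E4H 2 was at 90.8 CPM, below the 3 other PS/E4H mice at 99.8, 99.8 and 101 CPM (Dixon ratio 0.866). About 1 set in 20 would be marked in this way without any real departure. No difference in the PS19 response between APOE lines passed for any of the 9 genes.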

How the results depend on the processing

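Over all lines, Aplp2, Aph1a and Itm2b passed in every alternative run and in each of the 21 fits that left out 1 mouse. The single-line counts were less steady. In PS/E4H over E4H, where 2 of the 9 genes passed, none did (0) with limma on log2(FPKM + 1) with no filter or with a replicate block, and leaving out 1 mouse gave 1 to 2. In PS/E3H over E3H, where none passed, DESeq2 and the fit of all 21 mice each called 1, Aplp2, and leaving out 1 mouse gave 0 to 2. For APOE2 over APOE3, DESeq2 called 1, Adam10, and leaving out 1 mouse gave 0 to 1, as it did for APOE4 over APOE2. Aplp1 in PS19 over parental mice ran from -0.0063 to 0.070 without 1 mouse, its sign turning without E2H 1 or PS/E3H 1. Of the 40 further genes, 6 passed for PS19 over parental mice, 3 in limma on log2(FPKM + 1) with no filter, 10 without E2H 2 and PS/E3H 1, and 3 to 10 without 1 mouse. In PS/E4H over E4H, 7 passed, 2 in limma with no filter, 1 with the replicate block and 1 to 8 without 1 mouse. In PS/E3H over E3H, 0 passed, 4 in DESeq2, 1 with library size alone, without mitochondrial genes or with all 21 mice in 1 fit, and 0 to 4 without 1 mouse. For APOE2 over APOE3, 1 passed, Tspan33, and 0 with DESeq2 size factors, library size alone, no filter, the 3 limma fits or without E2H 2 and PS/E3H 1, and 0 to 5 without 1 mouse. For APOE4 over APOE2, 1 passed, 2 in DESeq2, 0 in the 3 limma fits and 0 to 2 without 1 mouse. The other counts of the 9 genes stayed the same within 1.5 times. The cause of these shifts was not tested. Shares over all genes are not given for the fits that left out mice, so these changes in count are not read as results about the genes. The order of the 9 genes by level was the same by counts per kilobase. That measure also divides by exon length, so it is no separate check on the order. By median FPKM over all mice, Ncstn and Adam10 were level at 14.9. Within single groups the order of Bace1, Ncstn, Adam10 and Aph1a varied, as did that of App and Aplp2.

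The replicate numbers do not mark shared litters or days in the labels. Deviations from group means of the 48 pairs of mice with the same number had a median correlation of -0.039 (range -0.253 to 0.293, with 8 over 0.1). The median cannot show whether single pairs shared a litter or day. The block gave adjusted p = 0.0851 for Aph1a and 0.0654 for Itm2b in PS/E4H over E4H. With 3 or 4 mice a group, standard errors of the 9 genes in the single-line fits of PS19 over parental mice were 0.054 to 0.13 in log2.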
